A study of Rattus norvegicus with 15 samples.

Results

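Genes of the proteasome were followed through rat hepatocytes sorted by DNA content. The members were all probes whose gene name on the array begins with Psma, Psmb, Psmc, Psmd or Psme followed by a digit. This rule matched 52 probes for 46 gene names, out of 45598 probes and 36182 gene names on the array. Of the 46 genes, 44 were well above background on enough arrays to be tested, and each of these 44 was well above background on all 15 arrays. The other 2 are core subunits known from single tissues, Psma8 of the testis and Psmb11 of the thymic cortex. The Psma8 probe was well above background on 0 of 15 arrays, and the Psmb11 probes on 4 and 0 of 15. Of the tested genes, 3 are not plain subunits. Psmc3ip encodes a partner of meiotic recombinases, Psme1-ps1 is named as a pseudogene, and Psma3l is listed by RefSeq as a synonym of Psma3, whose probe lies in the same rn4 locus.

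The study measured total RNA of hepatocytes from adult female Wistar rats on 1-colour Agilent arrays. Living cells were stained with the DNA dye Hoechst33342 and sorted into 2c, 4c and 8c fractions, that is cells with diploid, tetraploid and octaploid DNA content. Each fraction was sampled once in each of 5 experiments, with rats aged 12, 14, 6, 5 and 6 weeks in experiments 1 to 5, so each group held 5 arrays. The animals carried no named allele and received no named treatment, and the number of rats per experiment is not given in the sources used here. A cell with doubled DNA before division has the DNA content of the next ploidy class, so the fractions are classes of DNA content. The p-values of comparisons of DNA content measure the spread of differences between experiments. Those of the test between experiments measure the spread among the fractions of an experiment. These fractions are not independent replicates of it, so spread between repeated experiments at 1 age is not measured.

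The proteasome is the barrel-shaped protease that degrades ubiquitin-tagged proteins. Its 20S core is a stack of alpha rings, which gate the entrance, around beta rings, which hold the proteolytic sites. The 19S cap binds ubiquitin chains, removes them, unfolds the substrate with a ring of ATPases and feeds it into the core. Interferons induce the immunoproteasome, in which Psmb8 takes the place of Psmb5, Psmb9 that of Psmb6 and Psmb10 that of Psmb7, and the 11S activator made of Psme1 and Psme2. The exchanged subunits change the peptides that are cut for display on MHC class I molecules. In liver, both the standard and the immune form are known from hepatocytes, alongside the immune form of resident immune cells.

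Levels are log2 signals relative to each array's 75th percentile, so a level of 0 equals that percentile and 1 unit is a doubling. Between 39.6% and 47.4% of probes were well above background on each array, and no spot was saturated. The 10 hepatocyte markers (albumin, transthyretin and others) were well above background on all 15 arrays, and 0 of the 10 passed in any comparison of DNA content, with 0 at an unadjusted p under 0.05 (limma). Markers of Kupffer cells, the liver macrophages, were lower in 4c and 8c than in 2c cells. Of 8 tested, 7 passed as lower in 8c than in 2c cells and 6 in 4c than in 2c cells. In 8c against 4c cells 0 of 8 passed. The summed Kupffer level ranged from -0.36 to 3.91 in 2c, from -2.56 to -0.67 in 4c and from -2.90 to -0.81 in 8c samples. Markers of stellate cells passed as lower in 8c than in 2c cells for 6 of 7 tested. Those of sinusoidal endothelium passed as lower for 3 of 6, with 5 lower at an unadjusted p under 0.05 (limma). Of 9 genes of G2 phase and mitosis tested, 7 passed as higher in 8c than in 2c cells, and 9 were higher at an unadjusted p under 0.05 (limma). Pancreatic acinar transcripts were present on some arrays, with 20 of 20 probes well above background on the 2c and 8c arrays of experiment 1, all arrays of experiment 2 and the 8c array of experiment 3, and 5 or 6 of 20 on the rest. In such sorted bulk samples, fewer cells of a type and less RNA per cell cannot be told apart.

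The results on the members turn on the immunoproteasome genes, so their probes and promoters are shown beside those of a standard counterpart. All probes are 60 bases long and are given in full, 5′ to 3′, with no part marked. Psmb8 has 2 probes that share no run longer than 5 bases. The brighter, spotted 10 times per array, has no genome position in the files. The second, spotted 2 times, spans rn4 chr20:4787006-4787484 on the minus strand, a stretch of 479 bases. The Psmb9 probe lies at rn4 chr20:4806341-4806400 on the plus strand. The Psmb5 probe lies at rn4 chr15:32690134-32690193 on the minus strand.
Psmb8 brighter probe: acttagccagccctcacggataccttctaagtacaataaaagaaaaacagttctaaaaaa
Psmb8 second probe: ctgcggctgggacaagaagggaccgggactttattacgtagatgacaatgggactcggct
Psmb9 probe: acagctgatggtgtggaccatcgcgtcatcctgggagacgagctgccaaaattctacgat
Psmb5 probe: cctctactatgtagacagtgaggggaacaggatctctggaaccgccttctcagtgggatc

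The promoters below are the RefSeq windows of 300 bases in build GRCr8, with 250 bases before the annotated start and 50 after it, written along the gene. They are shown because Psmb8 and Psmb9 differed most between experiments, Psmb10 completes the immune set, and Psmb5 is the subunit that Psmb8 replaces. Capitals mark matches on either strand to 3 motifs: a pair of GAAA runs with any 2 bases between them, the core of the interferon-stimulated response element bound by interferon regulatory factors, TTCNNNGAA, the element bound by STAT dimers, and TGACNNNGC, the antioxidant-type element bound by NFE2L1 and NFE2L2 with small MAF proteins. NFE2L1 is the factor that raises proteasome genes when proteasome activity falls.
Psmb8, chr20:4656982-4657281, minus strand: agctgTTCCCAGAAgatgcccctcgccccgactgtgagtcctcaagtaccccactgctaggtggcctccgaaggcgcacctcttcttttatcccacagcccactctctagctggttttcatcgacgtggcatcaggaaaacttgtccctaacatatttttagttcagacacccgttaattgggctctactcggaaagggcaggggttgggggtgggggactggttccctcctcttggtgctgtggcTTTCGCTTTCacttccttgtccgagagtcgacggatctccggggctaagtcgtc
Psmb9, chr20:4668750-4669049, plus strand: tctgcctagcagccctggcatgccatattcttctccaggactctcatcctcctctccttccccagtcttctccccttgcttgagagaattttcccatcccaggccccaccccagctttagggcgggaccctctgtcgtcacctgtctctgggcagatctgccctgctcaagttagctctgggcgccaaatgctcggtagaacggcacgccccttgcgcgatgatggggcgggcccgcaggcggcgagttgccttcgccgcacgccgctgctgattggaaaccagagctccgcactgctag
Psmb10, chr19:50743243-50743542, minus strand: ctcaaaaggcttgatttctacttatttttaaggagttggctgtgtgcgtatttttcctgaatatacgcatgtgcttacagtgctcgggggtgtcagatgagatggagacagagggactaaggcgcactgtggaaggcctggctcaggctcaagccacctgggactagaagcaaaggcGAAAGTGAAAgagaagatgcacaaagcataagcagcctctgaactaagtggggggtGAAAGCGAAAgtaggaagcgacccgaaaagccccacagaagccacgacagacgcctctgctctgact
Psmb5, chr15:32047330-32047629, minus strand: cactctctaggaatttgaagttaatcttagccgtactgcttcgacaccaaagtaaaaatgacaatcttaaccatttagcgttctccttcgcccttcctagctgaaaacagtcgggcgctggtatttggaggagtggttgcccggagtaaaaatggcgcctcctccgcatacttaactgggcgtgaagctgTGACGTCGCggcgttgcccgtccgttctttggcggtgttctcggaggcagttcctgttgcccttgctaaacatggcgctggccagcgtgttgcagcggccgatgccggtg

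The Psmb8 window holds 1 interferon-type match starting at base 247 and 1 STAT-type match starting at base 6. The Psmb10 window holds 2 interferon-type matches, starting at bases 178 and 234. The Psmb9 window, which lies in the region shared with its divergent neighbour Tap1, holds none of the 3 motifs. The Psmb5 window holds 1 antioxidant-type match starting at base 191. Promoter windows were found for 39 of the 46 members. The interferon-type motif occurred in 6 of these 39 (Psma4, Psmb3, Psmb8, Psmb10, Psmd7 and Psme2), or 15.4%, against 3.92% of all 33469 rat promoter windows. The antioxidant-type motif occurred in 8 of 39, or 20.5%, against 12.1% of all windows, and the STAT-type motif in 4 of 39, or 10.3%, against 8.87%. GGGCGG, the GC box of housekeeping promoters, occurred in 28 of 39 windows, against 33.1% of all. CCAAT occurred in 20 of 39, against 37.5% of all. CCGGAAGT, bound by ETS factors, occurred in 7 of 39, against 3.81% of all. Matches of different motifs were counted separately and may overlap, and each match is only a run of letters in the window.

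The first question was whether proteasome genes differ with DNA content. None of the 44 tested genes passed in 8c against 2c cells (limma with the experiment as a block, adjusted p under 0.05 over 17056 features), where 2.37% of all features did, 0.809% higher and 1.56% lower. None passed in 4c against 2c cells, against 1.27% of all features (0.264% higher and 1.01% lower). The count was also 0 in 8c against 4c cells, against 0.651% (0.639% higher and 0.0117% lower). Over all features the split of 138 higher and 266 lower calls in 8c against 2c cells became 225 and 192 when arrays were scaled over all probes, and that of 45 and 172 in 4c against 2c cells became 72 and 111, while the count of members was 0 under both scalings. At an unadjusted p under 0.05, 3 were higher and 3 lower in 8c than in 2c cells, 2 were higher and 4 lower in 4c than in 2c cells, and 2 were higher and 0 lower in 8c than in 4c cells. Over all 17056 features these counts were 1087 and 1465, 990 and 1717, and 776 and 548. The median log2 difference of the 44 genes was -0.01 in 8c against 2c, -0.03 in 4c against 2c and 0.05 in 8c against 4c cells. The same medians over all features were -0.02, -0.03 and 0.00. The 95% interval lay within 1.5-fold in either direction for 41 of 44 genes in 8c against 2c cells, for 38 in 4c against 2c cells and for 40 in 8c against 4c cells. Over all features that share was 69.0%, 68.3% and 71.9%. In 8c against 2c cells, 4 members were higher and 2 lower in 5 of 5 experiments, against 7.19% and 8.07% of all features (15.3% in either direction). In 4c against 2c cells these counts were 3 and 4, against 5.27% and 8.61% (13.9%), and in 8c against 4c cells 6 and 1, against 8.82% and 4.71% (13.5%). The groups did not overlap for 0 members in 8c against 2c cells, against 1.36% of all features, for 1 in 4c against 2c cells, against 1.32%, and for 0 in 8c against 4c cells, against 0.557%. The 3 genes whose interval passed 1.5-fold in 8c against 2c cells were the lid genes Psmd7, Psmd13 and Psmd14.

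**Figure D1:**
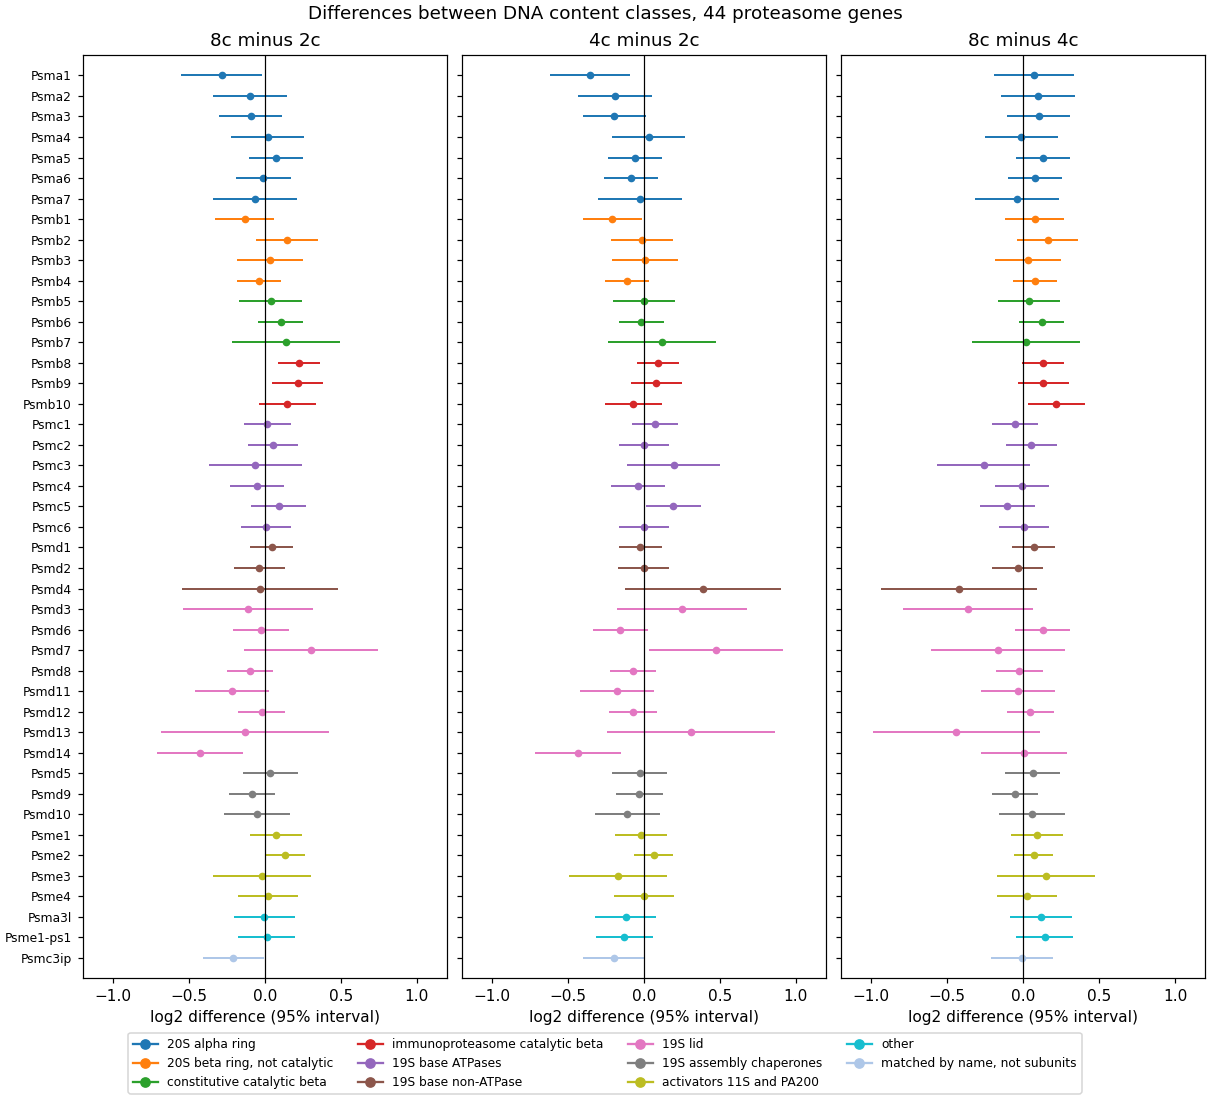
Log2 differences (horizontal axis) of the 44 tested proteasome genes in 8c minus 2c, 4c minus 2c and 8c minus 4c cells, with 95% intervals from limma over 5 experiments; colours give the role of each gene. Most points lie close to 0, the 3 immunoproteasome genes lie to the right of 0 in 8c minus 2c, and the widest intervals belong to lid genes and Psmd4.

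The alpha ring of the core, 7 genes that form the gate, gave a median difference of -0.07 in 8c against 2c cells and -0.09 in 4c against 2c cells. None of the 7 passed (limma), with 1 lower at an unadjusted p under 0.05 in each of these comparisons. Psma1 had the most negative difference of the ring, -0.36 ± 0.12 (SE) in 4c against 2c cells, lower in 5 of 5 experiments, with a limma adjusted p of 0.177. The differences of Psma2, Psma3, Psma4, Psma5, Psma6 and Psma7 in 8c against 2c cells lay between -0.10 and 0.08. A second, dimmer Psma7 probe gave -0.19 ± 0.11 (SE) in 8c against 2c cells. The 4 beta subunits without a proteolytic site, Psmb1, Psmb2, Psmb3 and Psmb4, had differences between -0.13 and 0.15 in the same comparison, and 0 of 4 passed. Psmb1 was lower in 5 of 5 experiments in 4c against 2c cells, by -0.21 ± 0.08 (SE, limma adjusted p 0.269). Over the 14 standard core subunits, alpha and beta together, the median difference was 0.00 in 8c against 2c, -0.04 in 4c against 2c and 0.08 in 8c against 4c cells. The last was positive for 12 of 14, and for 8704 of 17056 features in all. Over the 44 members the median difference of 8c against 4c cells was 0.24 in experiment 3 and between -0.05 and 0.08 in the other experiments.

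Psmb5, the chymotrypsin-like subunit of the standard core, had log2 levels of 2.50, 2.89, 2.88, 3.08 and 2.99 in 2c cells of experiments 1 to 5, 2.81, 2.78, 2.63, 3.13 and 2.98 in 4c cells and 2.83, 2.89, 2.94, 2.97 and 2.90 in 8c cells. The 3 groups overlapped, and the lowest value was that of 2c cells in experiment 1. The difference of 8c against 2c cells was 0.04 ± 0.09 (SE), with a 95% interval from -0.16 to 0.24 and a limma adjusted p of 0.892. For Psmb6, the caspase-like subunit, levels were 2.20, 2.47, 2.32, 2.31 and 2.45 in 2c, 2.29, 2.37, 2.17, 2.45 and 2.39 in 4c and 2.33, 2.46, 2.44, 2.53 and 2.51 in 8c cells. The groups overlapped, although 8c cells exceeded 4c cells in 5 of 5 experiments. Psmb6 differed by 0.10 ± 0.06 (SE) between 8c and 2c cells, with an interval from -0.04 to 0.25 and a limma adjusted p of 0.494. The trypsin-like subunit Psmb7 had levels of 0.40, 0.37, 0.56, 0.90 and 0.53 in 2c, 0.87, 0.43, 0.03, 1.01 and 1.01 in 4c and 0.94, 0.32, 0.74, 0.69 and 0.76 in 8c cells. Its widest spread was among 4c cells, where experiment 3 was lowest. Psmb7 differed by 0.14 ± 0.16 (SE) between 8c and 2c cells, with an interval from -0.21 to 0.49.

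The immune catalytic subunits were set beside these. Psmb8, which replaces Psmb5, had log2 levels of 3.17, 2.96, 2.30, 1.75 and 2.16 in 2c cells, 3.18, 3.04, 2.37, 1.90 and 2.32 in 4c cells and 3.25, 3.15, 2.59, 2.09 and 2.40 in 8c cells of experiments 1 to 5, by its brighter probe. With this probe the order within each of the 5 experiments was 2c, 4c, 8c from low to high, while the groups overlapped because the experiments differed by more than the fractions. The difference of 8c against 2c cells was 0.23 ± 0.06 (SE), or 1.17-fold with a 95% interval from 1.07 to 1.28, and it missed the threshold at a limma adjusted p of 0.0878. It was the lowest adjusted p among the members. The second Psmb8 probe gave 0.07 ± 0.13 (SE, adjusted p 0.848 in the same fit), and it had the order 2c, 4c, 8c in experiment 2 only. In experiment 4 its levels ran the other way, 0.46 in 2c, 0.27 in 4c and 0.19 in 8c cells. Psmb9, which replaces Psmb6, had levels of 1.08, 1.06, 0.68, 0.37 and 0.91 in 2c, 1.24, 1.24, 0.73, 0.32 and 0.98 in 4c and 1.35, 1.28, 1.11, 0.39 and 1.04 in 8c cells. In each experiment the 8c value exceeded the 2c and the 4c value. Its difference of 8c against 2c cells was 0.22 ± 0.07 (SE), or 1.16-fold, with a limma adjusted p of 0.184. Psmb10, which replaces Psmb7, had levels of 2.44, 2.44, 2.13, 2.02 and 2.25 in 2c, 2.43, 2.32, 1.88, 2.09 and 2.22 in 4c and 2.63, 2.28, 2.32, 2.33 and 2.48 in 8c cells. Experiment 2 ran against the others, with the 8c value below both the 2c and the 4c value. Psmb10 had the largest positive difference of any member in 8c against 4c cells, 0.22 ± 0.08 (SE), with a limma adjusted p of 0.576. Of the 8 tested Kupffer markers, 7 passed as lower in 8c than in 2c cells, and 0 passed in 8c against 4c cells. The part of these markers in the values of the immune subunits was not tested.

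**Figure D2:**
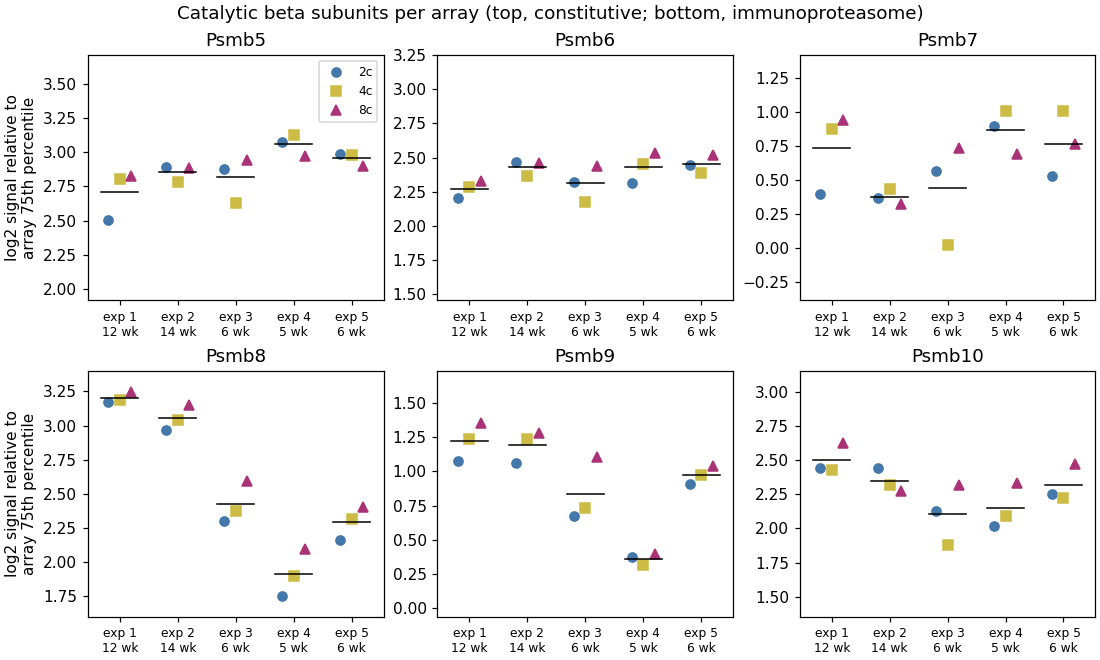
Log2 level relative to the array's 75th percentile (vertical axis) of the catalytic subunits on each of the 15 arrays, by experiment and age of the rats; circles are 2c, squares 4c and triangles 8c cells, and the black line is the mean of an experiment. Every panel spans the same number of log2 units, and Psmb6 and Psmb8 are shown by their brighter probe. The mean of Psmb8 is 3.20 in experiment 1 and 1.91 in experiment 4, while the ranges of Psmb5, Psmb6 and Psmb7 are 0.35, 0.18 and 0.49.

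The 11S activator opens the core gate without ubiquitin or ATP. Psme1 had levels of 3.28, 3.37, 3.28, 3.30 and 3.33 in 2c, 3.33, 3.36, 3.01, 3.41 and 3.37 in 4c and 3.36, 3.39, 3.42, 3.42 and 3.34 in 8c cells. Apart from the 4c array of experiment 3, all values lay between 3.28 and 3.42. Psme2, its partner, had levels of 2.88, 3.04, 2.88, 3.09 and 2.91 in 2c, 3.02, 3.08, 2.89, 3.15 and 2.97 in 4c and 3.06, 3.08, 3.03, 3.28 and 3.02 in 8c cells. Psme2 was higher in 8c than in 2c cells in 5 of 5 experiments, by 0.13 ± 0.05 (SE, limma adjusted p 0.281), and the groups overlapped. Psme3, the nuclear form of the activator, differed by -0.02 ± 0.14 (SE) and Psme4, the PA200 activator, by 0.02 ± 0.09 (SE) in the same comparison. The Psme1-ps1 probe shares no run longer than 4 bases with the Psme1 probe, and its difference was 0.01 ± 0.08 (SE).

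The base of the 19S cap holds 6 ATPases that unfold substrates. None of the 6 passed (limma), with 1 higher at an unadjusted p under 0.05 in 4c against 2c cells. By the brightest probes their differences in 8c against 2c cells lay between -0.06 for Psmc3 and 0.09 for Psmc5. Psmc1 depended on the probe. Its brighter probe gave 0.02 ± 0.07 (SE) in 8c against 2c and 0.07 ± 0.07 in 4c against 2c cells. The second gave -0.12 ± 0.07 and -0.19 ± 0.07. Psmc5 was the 1 member whose groups did not overlap in any comparison. Its 4c values were 3.25, 3.08, 3.05, 3.00 and 3.08 and its 2c values 2.87, 2.96, 2.81, 2.99 and 2.86, so the lowest 4c value lay just above the highest 2c value. The difference was 0.19 ± 0.08 (SE, limma adjusted p 0.265), and 1.32% of all features had groups without overlap in this comparison. The scaffold subunits Psmd1 and Psmd2 differed by 0.05 ± 0.06 and -0.04 ± 0.07 (SE) between 8c and 2c cells. The ubiquitin receptor Psmd4 differed by 0.39 ± 0.23 (SE) in 4c against 2c cells and by -0.42 ± 0.23 in 8c against 4c cells, lower in 8c in 5 of 5 experiments, with limma adjusted p values of 0.442 and 0.675.

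The lid removes ubiquitin chains and links base and core, and it held the extremes of the family. Psmd14, the deubiquitinating enzyme of the lid, had levels of -0.98, -1.91, -1.78, -1.25 and -1.53 in 2c, -1.61, -2.07, -2.32, -2.05 and -1.57 in 4c and -1.65, -2.20, -1.92, -2.08 and -1.73 in 8c cells. In each of the 5 experiments the 2c value was the highest, and the groups overlapped. The difference was -0.42 ± 0.12 (SE) in 8c against 2c cells and -0.43 ± 0.12 in 4c against 2c cells, with limma adjusted p values of 0.13 and 0.134. These were the most negative differences of any member in both comparisons. Psmd7, the inactive partner of Psmd14, had levels of -0.78, 0.26, 0.18, 0.48 and 0.13 in 2c, 0.51, 0.22, 0.66, 0.63 and 0.61 in 4c and 0.59, 0.19, 0.37, 0.29 and 0.36 in 8c cells. The 2c array of experiment 1 stood far below the other 14. Its difference was the largest positive one of any member, 0.47 ± 0.20 (SE) in 4c against 2c and 0.31 ± 0.20 in 8c against 2c cells, with limma adjusted p values of 0.28 and 0.515. Without experiment 1 these were 0.27 ± 0.11 and 0.04 ± 0.11. Psmd13, a structural lid subunit, had levels of -1.72, -1.96, -1.92, -0.76 and -1.93 in 2c, -0.90, -1.83, -1.78, -1.30 and -0.95 in 4c and -1.33, -2.19, -1.46, -2.04 and -1.93 in 8c cells. Here the 2c array of experiment 4 stood far above the other 2c arrays. Psmd13 had the most negative difference in 8c against 4c cells, -0.44 ± 0.25 (SE, limma adjusted p 0.683). The lid subunits Psmd3, Psmd6, Psmd8, Psmd11 and Psmd12 differed by between -0.21 and -0.02 in 8c against 2c cells. The assembly chaperones of the base, Psmd5, Psmd9 and Psmd10, differed by between -0.08 and 0.03.

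One array stood apart for this family. The 4c array of experiment 3 gave the lowest value of 22 of the 44 genes and that of 13.5% of all features. The same array gave the highest value of 1 of the 44 genes and that of 17.0% of all features. Without it, the counts of genes passing in the 3 comparisons of DNA content were again 0, 0 and 0, and the median difference of 8c against 4c cells was -0.01, against 0.05 with it.

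The second question was how the members vary between experiments. Of the 44 genes, 8 differed between the 5 experiments (limma F test, adjusted p under 0.05), or 18.2%, against 37.3% of all features. The median range between the highest and lowest experiment mean was 0.34 for the members and 0.57 for all features. None of the 14 standard core subunits passed, with 2 of 14 at an unadjusted p under 0.05. The 8 genes were Psmb8, Psmb9, the ATPases Psmc4 and Psmc6, the deubiquitinase Psmd14, the chaperones Psmd5 and Psmd10, and Psmc3ip. Apart from Psmb8 and Psmb9 their ranges between experiments lay between 0.43 and 0.65. The lid gene Psmd11 missed the threshold by its brighter probe (limma adjusted p 0.0904) but passed by its second probe (limma adjusted p 0.0143). Psmc6 had experiment means of -1.26, -1.23, -1.47, -1.69 and -1.68, highest in both older experiments (limma adjusted p 0.00587). Psmd5 ran the other way in experiments 4 and 5, with means of -2.13, -1.96, -2.05, -1.69 and -1.62 (limma adjusted p 0.00941). Psmd10 had means of -3.16, -3.24, -3.53, -3.52 and -3.60 (limma adjusted p 0.0414). Of 16 alternatives, the call was kept under 6 for Psmd10, 8 for Psmc4, 11 for Psmd14, 12 for Psmd5, 13 for Psmc3ip and 14 for Psmc6.

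**Figure D3:**
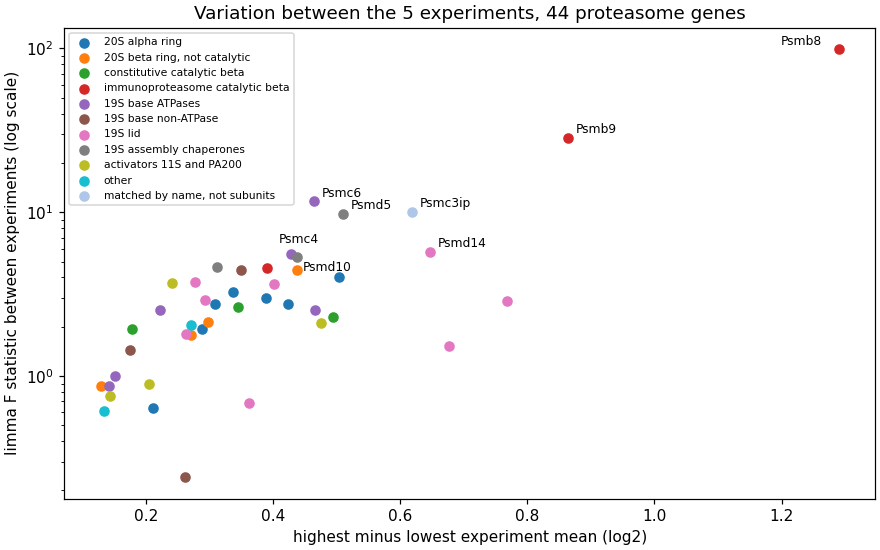
Range between the highest and lowest experiment mean (horizontal axis, log2) and limma F statistic of the differences between the 5 experiments (vertical axis, log scale) of the 44 tested proteasome genes; colours give the role, and the 8 named genes pass at an adjusted p under 0.05. Psmb8, with a range of 1.29, and Psmb9, with 0.86, lie apart from the rest.

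Psmb8 had the largest range of any member. Its experiment means were 3.20 ± 0.04, 3.05 ± 0.09, 2.42 ± 0.15, 1.91 ± 0.17 and 2.29 ± 0.12 (SD, n = 3 fractions) in experiments 1 to 5. The experiments with rats of 12 and 14 weeks were both above those with rats of 5 and 6 weeks, and all 6 of their arrays lay above all 9 others. The F statistic was 99.0 with a limma adjusted p of 6.01e-06, and it was higher than that of 99.3% of all features. The mean of the older experiments, 3.13, exceeded that of the younger ones, 2.21, by 0.92, or 1.89-fold. The second Psmb8 probe had experiment means of 1.49, 1.19, 0.68, 0.31 and 0.73, with the same older experiments highest, the same experiment lowest and an F statistic of 15.9 (limma adjusted p 0.00245). Both Psmb8 probes therefore gave the older experiments the higher levels.

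Psmb9 followed with experiment means of 1.22 ± 0.14, 1.19 ± 0.12, 0.84 ± 0.23, 0.36 ± 0.04 and 0.98 ± 0.07 (SD, n = 3 fractions). Its F statistic was 28.5 with a limma adjusted p of 4.05e-04. The older experiments had a mean of 1.21 and the younger ones of 0.72, or 1.40-fold, and experiment 4, with the youngest rats, was the lowest for both genes. Without experiment 4, the range of Psmb9 dropped from 0.86 to 0.39, with a limma adjusted p of 0.0377. Psmb10 had a range of 0.39 and missed the threshold at a limma adjusted p of 0.0574, with means of 2.42 in the older and 2.19 in the younger experiments. Psme1 and Psme2, which belong to the same interferon-induced set, had ranges of 0.14 and 0.24 and limma adjusted p values of 0.625 and 0.0867. Among the standard catalytic subunits the ranges were 0.35 for Psmb5, 0.18 for Psmb6 and 0.49 for Psmb7, with limma adjusted p values of 0.158, 0.246 and 0.197. The value of Psmb6 is that of its brighter probe. Its second probe varied more, with experiment means of 1.93, 2.21, 2.06, 2.18 and 2.28 and a limma adjusted p of 0.0607.

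In all, 7 of 44 members had both older experiments above all younger ones, against 14.7% of all features, and 4 of 44 had both below, against 18.5%. The 7 were Psmb8, Psmb9, Psmb10, Psmc6, Psmd10, Psma2 and Psma6. Age cannot be told apart from the other ways in which the 5 experiments differ, since each experiment has 1 age. Slide was shared in part: experiments 1 and 2 lay on 1 slide together with the 2c and 4c samples of experiment 3. Those 2 samples of experiment 3 had Psmb8 levels of 2.30 and 2.37, below the 2.96 to 3.25 of the other 6 arrays of the slide.

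Acinar transcripts were high on 5 of 6 arrays of the older experiments and on 1 of 9 of the younger ones. The 4c array of experiment 1 had a summed acinar level of 4.59, with 6 of 20 probes well above background, and a Psmb8 level of 3.18, between the 2c and 8c arrays of that experiment. The 8c array of experiment 3 had a summed acinar level of 5.16, with 20 of 20 probes well above background, and a Psmb8 level of 2.59. Leaving out all arrays with acinar transcripts left 1 array of the older experiments. The range of Psmb8 between experiments was then 1.27 with a limma adjusted p of 0.0547, and that of Psmb9 0.88 with 0.0715. Kupffer markers did not pass between experiments for any of 8 tested, with 2 at an unadjusted p under 0.05 (limma), and lymphocyte markers for none of 3, with 1. The median range between experiment means was still 1.88 for Kupffer and 0.52 for lymphocyte markers, against 0.57 for all features. Of the acinar transcripts, 20 of 20 passed between experiments, where 37.3% of all features did. In other lists 6 of 10 hepatocyte markers and 8 of 9 genes of G2 phase and mitosis passed. For stellate markers the count was 2 of 7, or 28.6%, and for sinusoidal endothelium 1 of 6, or 16.7%, both below the share of all features. The hepatocyte gene Apoa1 had experiment means of 4.94, 4.59, 5.70, 5.87 and 5.81, and Ahsg of 6.01, 6.24, 6.87, 7.07 and 6.94. Both were lower in the 2 older experiments, as were Hnf4a and Fgb. Apoc3 and Ttr also passed but were lowest in experiment 1 and highest in experiment 2. Their means in experiments 1 and 2 were 7.40 and 7.97 for Apoc3 and 7.29 and 7.97 for Ttr. The part of these lists in the Psmb8 result was not tested.

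Whether the difference of 8c against 2c cells changes with age was tested next. In the limma interaction of age with DNA content, 0 of 44 members passed, 0 at an unadjusted p under 0.05, and 0% of all features passed. The lowest unadjusted p of the members in this limma model was 0.117, for Psmb10, with a change of -0.04 ± 0.02 (SE) per week in the log2 difference.

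The genes that work with the immunoproteasome were looked at in lists. MHC class I molecules are loaded with its peptides, and 8 of 14 tested genes of MHC class I antigen processing differed between experiments, as did 6 of 12 genes of interferon control, where 37.3% of all features did. RT1-A1, a classical class I heavy chain, had experiment means of 4.68, 4.45, 3.90, 3.60 and 3.50, and its F statistic was 60.9. RT1-A2 had means of 4.07, 3.90, 3.41, 2.89 and 3.30. Probes for RT1 heavy chains can share signal among near-identical genes, so each of these values is uncertain as to the gene. B2m, the light chain of class I, had means of 4.31, 4.47, 3.90, 3.75 and 3.88 (limma adjusted p 6.96e-04). In these 3 genes both older experiments were above all younger ones. Nlrc5, the transcriptional activator of class I genes, passed as well, with means of -0.90, -1.22, -1.67, -1.64 and -1.48. RT1-CE5 and RT1-S3 were also highest in experiments 1 and 2. Tapbpl, a peptide editor, ran the other way in experiment 1, with a mean of -7.29 against -5.06 to -3.60 in the others. A level of -7.29 is dim, within the -8.36 to -6.17 of the Psmb11 probe well above background on 0 of 15 arrays. Tap1 and Tap2, the peptide transporter, did not pass, with limma adjusted p values of 0.097 and 0.707.

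Among the interferon genes, Irf1, a factor known to drive immunoproteasome genes, had experiment means of 1.09, 0.52, 0.13, -0.62 and 0.42. Irf7 had means of -1.15, -2.04, -2.64, -3.41 and -2.97, and Irf9 of -0.63, -0.54, -1.25, -1.70 and -1.84. These 3 genes were higher in both older experiments than in each younger one. Ifngr2 and Gbp5 also passed but were highest in experiments 1 and 5. In experiment 2 Ifngr2 had a mean of -1.17 and Gbp5 of -5.19, close to their means in experiments 3 and 4. Stat2, Jak1, Jak2, Ifngr1, Irf8 and Gbp2 did not pass between experiments.

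**Figure D4:**
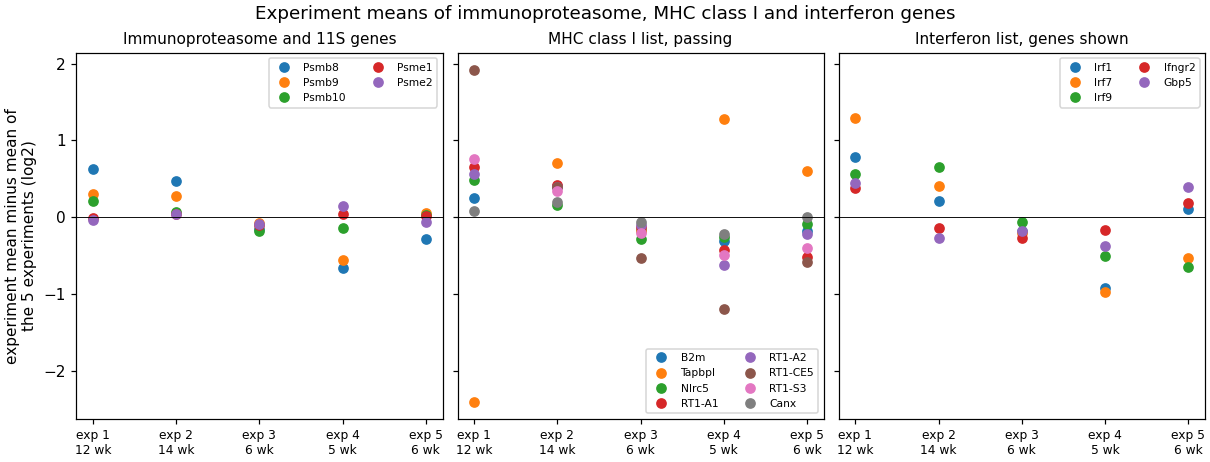
Experiment means minus the mean of the 5 experiments (vertical axis, log2) by experiment and age of the rats, for immunoproteasome and 11S genes, for genes of the MHC class I list that passed between experiments and for 5 such genes of the interferon list; each point is the mean of 3 fractions. Psmb8, RT1-A1, B2m, Irf1, Irf7 and Irf9 lie above 0 in experiments 1 and 2, while Psme1 stays close to 0 and Tapbpl is lowest in experiment 1.

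Psmb8, Psmb9, Tap1 and Tap2 lie together in the class II region of the MHC on chromosome 20. Within 250 kb of the second Psmb8 probe on rn4, 15 other features outside the family were tested. Psmb9 lies there too and passed, but is not counted among the 15. Of the 15, 5 differed between experiments, or 33.3%, against 37.3% of all features. The 5 were RT1-A2, RT1-A3, RT1-DMa, RT1-DMb and Hsd17b8. RT1-A3, with an F statistic of 99.8, also had both older experiments highest, while RT1-DMa was highest in experiment 5.

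By DNA content these lists gave little. Of the 14 tested MHC class I genes, 0 passed in any comparison (limma), with 2 at an unadjusted p under 0.05 in 8c against 2c cells, both lower. RT1-A1 and B2m, the brightest, differed by -0.21 ± 0.07 and -0.08 ± 0.07 (SE). Of the 12 interferon genes, 1 passed as lower in 4c than in 2c cells, against 1.01% of all features. This was Irf8, a factor of macrophages and other immune cells, which differed by -1.04 ± 0.21 (SE, limma adjusted p 0.0495). Its 4c mean of -6.29 is dim, within the -8.36 to -6.17 of the Psmb11 probe well above background on 0 of 15 arrays. Irf8 moved with the Kupffer list, 6 of 8 of whose tested markers passed as lower in the same comparison. The part of that list in the Irf8 result was not tested. The call was kept under 1 of 20 alternatives.

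Genes that assemble, tag for and control the proteasome were measured beside it. Of 13 tested assembly factors and partners, 0 passed by DNA content, with 2 higher and 1 lower at an unadjusted p under 0.05 in 8c against 2c cells (limma). Pomp, the chaperone that completes the core, differed by -0.01 ± 0.07 (SE) and Sem1, a small lid subunit outside the naming rule, by 0.18 ± 0.06 in 8c against 2c cells. Of 9 factors that control proteasome transcription, 0 passed and 0 were under an unadjusted p of 0.05. Their 2 brightest members, Nfe2l2 and Ngly1, the enzyme that activates NFE2L1, differed by -0.03 ± 0.11 and -0.04 ± 0.08 (SE). Nfe2l1 itself differed by 0.23 ± 0.19 (SE). Of 6 tested genes of ubiquitin and its activation, 0 passed (limma), with 1 higher at an unadjusted p under 0.05 in 8c against 2c cells and 2 higher in 4c against 2c cells. The polyubiquitin gene Ubb differed by 0.13 ± 0.08 (SE) in 8c against 2c cells. Of 11 shuttle factors and members of the segregase that delivers substrates, 1 passed. Faf2, which recruits that segregase to the endoplasmic reticulum, was higher in 4c than in 2c cells by 0.36 ± 0.07 (SE, limma adjusted p 0.045), a call kept under 4 of 21 alternatives. Vcp, the segregase itself, differed by 0.04 ± 0.11 (SE) in that comparison.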

How the data were processed

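The 15 arrays were read from scanner files whose spot intensities the authors deposited as background-subtracted processed signals; per the file headers Feature Extraction 11.5.1.1 wrote them, while the submitters' processing notes name version 10.7.3.1. The deposited value table held linear intensities and served as an alternative. Outlier spots were left out and spots of a probe averaged. Signals were log2-transformed and scaled to the 75th percentile of each array, taken over 16211 probes that passed the scanner's background test everywhere. Probes well above background on at least 5 of 15 arrays were kept, and the brightest probe stood for a gene, which left 17056 features. Comparisons used limma 3.58.1 in R 4.3.3 on all 15 arrays with the experiment as a block, the experiment test an F test over the block, and p-values were adjusted by Benjamini-Hochberg over all features. Precision is limited by the small number of arrays.

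The series describes independent experiments whose number stands in each title, which pairs the fractions. Deviations from the group means correlated from 0.04 to 0.79 over 15 pairs of arrays of the same experiment. Over 60 pairs that differed in both experiment and group the range was -0.62 to 0.41. Subtracting the group means in itself lowers the values between experiments, and the ranges overlap. Symbols came from the array, updated by RefSeq accession for 21064 probes outside the members. The members and lists were chosen with earlier results of these data known. Values in all arrays are given for the catalytic subunits, for Psme1 and Psme2, for any member passing by DNA content, and for the extremes of each comparison; Psmc5 was added after its values were seen. Of the other lists, genes passing or the 2 brightest are named, except some not reported here, and a few others were added after their values were seen. Scripts were tested on simulated data. Alternatives were other scalings, background correction, filters, probe averaging, blocks, slides and left-out arrays.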

Additional observations from a re-analysis of the deposited data

Results flagged for a closer look

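Among the genes given on every array, 6 of 44 value sets held 1 value far from the other 4; chance flags about 1 in 20 such sets. The Psmd7 level of 2c cells was -0.78 in experiment 1 and 0.13 to 0.48 in the other experiments. The difference of Psmd7 in 8c against 2c cells was accordingly 1.38 in experiment 1 and -0.19 to 0.23 in the others. The Psmd13 level of 2c cells was -0.76 in experiment 4 and -1.96 to -1.72 in the others. The Psme1 level of 4c cells was 3.01 in experiment 3, on the array that was lowest for many members, and 3.33 to 3.41 in the others. The Psme2 level of 8c cells was 3.28 in experiment 4 and 3.02 to 3.08 in the others. The difference of Psmb10 in 8c against 2c cells was -0.17 in experiment 2 and 0.19 to 0.31 in the others.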

How the results depend on the processing

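The counts of proteasome genes passing by DNA content were 0 in all 3 comparisons under each of 21 alternatives, and the lowest limma adjusted p of any member was 0.0557. Without the replicate block the counts were 0, 0 and 0, with the limma adjusted p of Psmb8 in 8c against 2c cells at 0.999, and with slide added to the replicate block they were 0, 0 and 0, with 0.198; the block changed no call among the proteasome genes. The median difference in 8c against 2c cells was 0.073 when scaled over all probes, against -0.01. Of the proteasome genes, 8 differed between experiments, 4 with no filter on dim probes, which adds features to the adjustment, and 5 to 12 when 1 experiment was left out. That count was 0 without the arrays with acinar transcripts and 0 without experiments 1 and 2, where fewer samples remain. The ranges then were 1.27 and 0.51 for Psmb8, and 0.88 and 0.62 for Psmb9, with limma adjusted p values of 0.0547, 0.0716, 0.0715 and 0.0771. Of 356 single differences under alternatives, 9 changed sign, 5 of them for Psmb5, and none belonged to a gene passing by DNA content. Between experiments, B2m and Irf7 passed under 14 of 16 alternatives and Irf9 under 15. The age interaction gave 0 throughout. Leaving out the 4c array of experiment 3 was chosen after seeing the data. Within each slide the 8c against 2c difference of Psmb8 was 0.13 and 0.29. Among the members, signal over background limits only Psma8 and Psmb11.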
